A study of Homo sapiens with 13 samples.

Results

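PTBP1 is an RNA-binding splicing regulator, and the regions described here are places within genes, mostly in introns, where a chromatin peak of PTBP1 was called and no RUNX1 peak overlapped it. They were selected from the deposited PTBP1 peak list by position. A peak had to overlap no RUNX1 peak, overlap a GENCODE version 44 gene, lie more than 1 kb from the transcription start site (TSS) of every gene, and have its summit outside every annotated exon of every transcript. Of 9370 PTBP1 peaks, 4760 overlapped no RUNX1 peak and 2139 of those lay in gene bodies away from a TSS. The summit was exonic in 711 of them and outside exons in 1428, and these 1428 regions are the subject. They are called intronic below, although the summits of 31 (2.17%) lay in no gene, all past the 3′ end of a gene that the peak overlaps. The rule used the calling of a peak by the PTBP1 and the RUNX1 data, so strength and the absence of a RUNX1 peak are given below as descriptions with no test. RUNX1 signal too weak for a peak was not measured here.

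The data came from MOLM-13, a leukemia cell line established from acute myeloid disease, with no treatment named in the labels. Chromatin was profiled by CUT&Tag, in which an antibody brings a transposase to the bound protein so that nearby DNA is cut and tagged, with antibodies to PTBP1, RUNX1 and IgG, and by CUT&RUN, which uses a tethered nuclease. CUT&Tag was done in 2 biological replicates for PTBP1, 2 for RUNX1 and 1 IgG library, among 13 libraries in all. The values below rest on 1 PTBP1 and 1 RUNX1 peak list with no replicate column, which leaves replicate spread unknown. Neither list names its assay, and both were taken as CUT&Tag lists, an assumption that the files could not settle. Intervals cover counting error only, and every region is from a single cell line.

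PTBP1 binds pyrimidine-rich stretches of RNA through its RNA recognition motifs and is best known for keeping exons out of mature transcripts, often from binding sites in the introns beside them. It has no known DNA-binding domain, and splicing takes place largely while the RNA is still being made on chromatin. RUNX1 is a DNA-binding transcription factor of blood cells that recognises a short motif through its Runt domain. An intronic chromatin peak of PTBP1 can therefore be compared with pyrimidine runs on the sense strand, with DNA motifs, and with the position of exons.

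Stretches reaching 50 bases to each side of the summit are printed for the strongest regions, because they show the kind of DNA these peaks lie on. Sequences are hg38, read 5′ to 3′ along the sense strand of the host gene. In the 5 strongest regions and in the sets below, capitals mark the element that put the region in its set. WDR90 (chr16:660855-660955, plus strand) has a GC box in capitals, the GC-rich element GGGCGG on either strand that is common in promoters. FBXO31 (chr16:87388411-87388511, minus strand) and ZDHHC11 (chr5:848983-849083, minus strand) hold none of the marked elements, and the other 2 of the 5 strongest, CCDC200 and SORCS2, are shown with their sets below. FBXO31 overlaps MAP1LC3B on the other strand, so its sense strand is not fixed.
WDR90: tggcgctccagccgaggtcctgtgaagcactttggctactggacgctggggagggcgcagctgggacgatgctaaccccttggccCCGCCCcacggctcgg
FBXO31: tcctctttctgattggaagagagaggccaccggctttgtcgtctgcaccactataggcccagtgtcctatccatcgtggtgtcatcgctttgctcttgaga
ZDHHC11: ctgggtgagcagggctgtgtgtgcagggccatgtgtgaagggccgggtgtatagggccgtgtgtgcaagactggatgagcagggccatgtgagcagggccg

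A sense pyrimidine run is here at least 12 unbroken C or T bases on the strand of the host gene. It is a simple stand-in for the pyrimidine-rich RNA that PTBP1 is known to bind. The 3 strongest regions with such a run, in capitals, were in CCDC200 (chr17:43232092-43232192, minus strand), SLC9A3 (chr5:486137-486237, minus strand) and COX19 (chr7:958128-958228, minus strand). SLC9A3 was also the strongest with a RUNX motif (TGCGGT or TGTGGT on either strand), whose letters are capitals as well.
CCDC200: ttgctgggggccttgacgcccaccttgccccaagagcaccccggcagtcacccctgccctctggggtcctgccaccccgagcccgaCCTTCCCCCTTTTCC
SLC9A3: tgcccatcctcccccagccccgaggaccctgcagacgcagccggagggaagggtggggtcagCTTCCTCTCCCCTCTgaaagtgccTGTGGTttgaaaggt
COX19: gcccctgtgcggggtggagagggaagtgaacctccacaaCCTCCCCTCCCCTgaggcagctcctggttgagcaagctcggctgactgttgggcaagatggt

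Another of the strongest regions with a RUNX motif, in capitals, was in MTA2 (chr11:62599287-62599387, minus strand). Its window also holds a sense pyrimidine run, left in lower case.
MTA2: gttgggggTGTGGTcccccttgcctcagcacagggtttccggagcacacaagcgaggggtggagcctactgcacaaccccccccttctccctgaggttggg

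The 3 strongest regions on a tandem repeat were in SORCS2 (chr4:7539818-7539918, plus strand), PRSS36 (chr16:31142336-31142436, minus strand) and CD99P1 (chrX:2629955-2630055, plus strand). A tandem repeat is a stretch in which at least 60% of the bases within 150 of the summit match the base a fixed distance further on. One unit of 25, 44 and 85 bases is in capitals.
SORCS2: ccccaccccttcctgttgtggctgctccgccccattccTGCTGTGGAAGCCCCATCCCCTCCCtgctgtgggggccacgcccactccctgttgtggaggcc
PRSS36: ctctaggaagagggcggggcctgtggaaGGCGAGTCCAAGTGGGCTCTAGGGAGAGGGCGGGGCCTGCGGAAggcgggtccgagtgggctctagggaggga
CD99P1: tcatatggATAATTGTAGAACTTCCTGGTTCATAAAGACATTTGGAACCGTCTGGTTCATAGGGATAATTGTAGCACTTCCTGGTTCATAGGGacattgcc

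The 1428 regions were narrow and mostly weak. Fold enrichment, taken from the peak caller, is the fragments at the summit plus 1, divided by the local background plus 1. It was 9.30 at the median region (quartiles 8.14 and 11.6, range 2.79 to 98.2). Intronic PTBP1 peaks that overlapped a RUNX1 peak (803 shared peaks) had a median of 13.95, and intronic RUNX1 peaks without PTBP1 (1325 RUNX1-only peaks) 12.8. Only 36 of the 1428 regions (2.52%) exceeded a fold of 20, against 205 of the shared peaks (25.5%) and 296 of the RUNX1-only peaks (22.3%). The 2 lists have different backgrounds, 0.7202 fragments for PTBP1 and 0.330 for RUNX1 at most peaks, so folds compare directly only within the PTBP1 list. The median summit rested on 16 fragments, which has an exact Poisson interval of 9.15 to 26.0, and the lowest on 11 (5.49 to 19.7). With so few fragments the order of neighbouring regions by fold is not resolved, since 1 more fragment adds 0.581 to the fold.

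**Figure D1:**
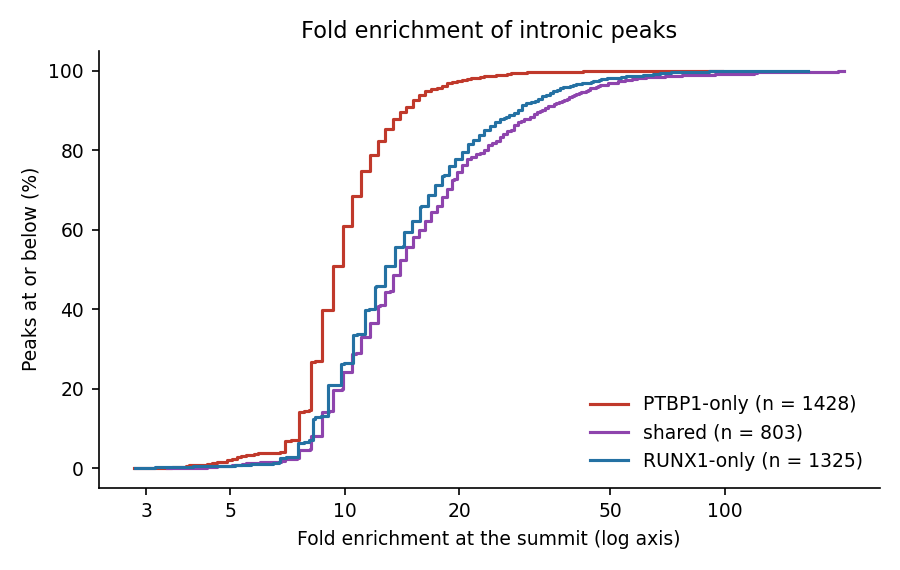
Share of intronic peaks (vertical axis, percent) at or below each fold enrichment (horizontal log axis) for the 1428 PTBP1-only, 803 shared and 1325 RUNX1-only peaks. The PTBP1-only curve lies to the left, with a median of 9.30 and 2.52% of peaks above 20.

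The strongest region stood far from the rest. It lay in CCDC200 on chromosome 17 (43231483 to 43232844), with 168 fragments and a fold of 98.2, and the Poisson interval of 144 to 195 fragments did not reach the 78 fragments of the next region. That one, in intron 3 of SORCS2, a sortilin-family receptor, had a fold of 45.9 and lay on the 25-base repeat shown above. WDR90, a WD-repeat protein of centrioles, followed with 43.0 in intron 28, and FBXO31, a substrate-recognition subunit of an SCF ubiquitin ligase, with 42.4. The remaining members of the top 10 were ZDHHC11 (37.8), LMTK3 (32.6), SLC9A3, BRD9 and COX19 (each 30.2) and PRSS36 (29.1). ZDHHC11 belongs to the palmitoyltransferases, SLC9A3 is the sodium/hydrogen exchanger NHE3, BRD9 is a bromodomain subunit of a BAF chromatin remodelling complex, and COX19 is a copper-handling assembly factor of cytochrome c oxidase. Of these 10 regions, 8 had a GC content of at least 60% at the summit, 6 lay within 5 Mb of a chromosome end and 6 lay within 1 kb of a transcript start other than a gene TSS.

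At the edges of the rule, the least significant regions were in SLC12A7 (−log10 q of 7.04, fold 3.89), NANOS3 and MAPK11 (both 7.57, fold 5.04), close to the authors' cut of 7, and all 3 stood on a raised background. The regions nearest to a TSS were in TSSK5P (1017 bases away), ENSG00000227527 (1022 bases) and PITPNC1 (1025 bases), with folds of 9.30, 8.14 and 8.72. Peaks just inside the 1 kb window, and so left out, included those of CHRM4 (985 bases) and ENSG00000267001 (975 bases), with folds of 13.4 and 8.72. The smallest gaps to a RUNX1 peak were 43 bases in RASA3, 61 in GSE1 and 122 in MACROD1. The neighbouring RUNX1 peaks there had folds of 12.03, 36.8 and 24.8. In all, 35 regions lay within 500 bases of a RUNX1 peak and 743 (52.0%) were more than 10 kb from one, with a median gap of 10728 bases.

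The summits were GC-rich. Over the 101 bases around the summit the median GC content was 62.4%, against 60.4% at shared summits, 50.5% at RUNX1-only summits and 39.6% at 62892 positions laid every 25 kb over the intronic bases that the rule allows. A GC content of at least 60% was found at 855 of 1428 summits (59.9%, Wilson interval 57.3 to 62.4) and at 47.5% of equal windows 500 bases upstream in the same genes. In the paired comparison 320 regions had it at the summit alone and 144 in the flank alone (adjusted exact p = 1.57e-15, two-sided exact sign test, Benjamini-Hochberg over 8 features). The share was higher than at RUNX1-only summits, where it was 17.0% (difference 42.9 points, interval 39.6 to 46.1, adjusted exact p = 2.01e-121, two-sided Fisher's exact test, as in the comparisons between classes below, each adjusted over 28). It was also higher than at shared summits (51.1%, difference 8.82 points, interval 4.52 to 13.1, adjusted exact p = 0.000132), but this difference did not hold away from chromosome ends. There, 300 of 680 regions (44.1%) and 290 of 606 shared summits (47.9%) had it (difference −3.74 points, adjusted exact p = 0.263).

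**Figure D2:**
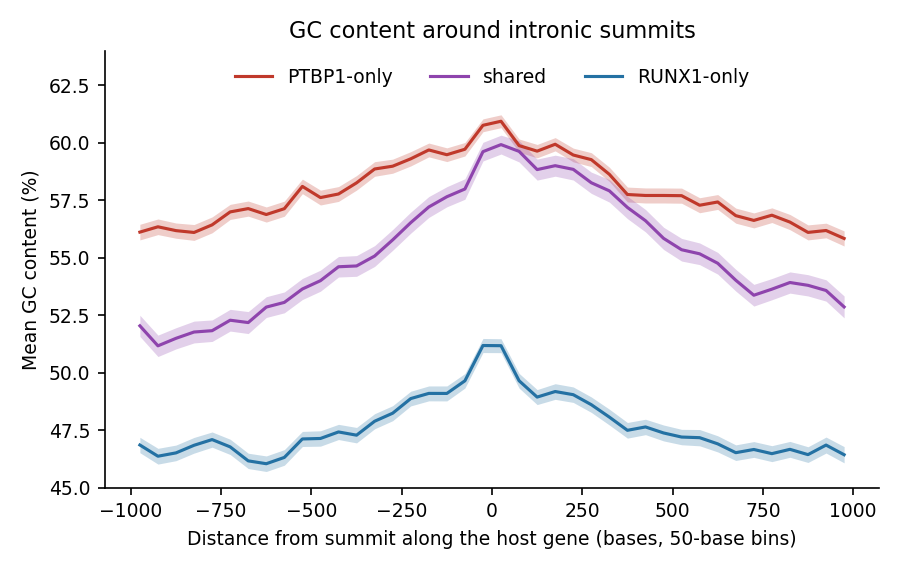
Mean GC content (vertical axis, percent, starting at 45) in 50-base bins against distance from the summit along the host gene (horizontal axis, bases), with bands of 1 standard error over peaks. PTBP1-only regions peaked at 60.9% and stayed at 55.8 to 56.1% at the edges, shared peaks rose from 52.0 to 59.9%, and RUNX1-only peaks from 46.9 to 51.2%.

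The rise in GC at the summit stood on an already GC-rich surrounding. The mean rose by 4.96 points from the edges of the 2 kb window to the summit in these regions, by 7.47 points at shared peaks and by 4.54 points at RUNX1-only peaks. These profiles are descriptions, since neighbouring bins and peaks share sequence.

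Unbroken pyrimidine runs on the sense strand were not more frequent at the summits. Shorter or interrupted pyrimidine-rich stretches were not scanned. Strand could be assigned for 1318 regions whose summit lay in genes of 1 strand, and 97 of them (7.36%, interval 6.07 to 8.90) held a run. The flank 500 bases upstream held one in 124 (9.41%), with 84 regions positive at the summit alone and 111 in the flank alone (adjusted exact p = 0.125, exact sign test). Intronic positions held one in 9.10%. Within windows of at least 60% GC the shares were 6.29% in these regions and 6.22% at intronic positions, and below 60% they were 8.99% and 9.21%. On the antisense strand 92 summits (6.98%) and 7.36% of intronic positions held a run. Sense alone occurred in 95 regions and antisense alone in 90, so that 51.4% of the regions with a run on only 1 strand had it on the sense strand (interval 44.2 to 58.5, p = 0.769, exact sign test). In windows of 100 bases either side, 16.4% had a sense and 12.8% an antisense run (194 against 147 regions on 1 strand alone, p = 0.0126, exact sign test). The flank windows of that width held 17.98% and 16.4%, and the intronic positions 17.3% and 14.3%. Shared summits held a sense run in 9.32% (difference −1.96 points, interval −4.61 to 0.471, adjusted exact p = 0.150). RUNX1-only summits held one in 10.3% (difference −2.98 points, interval −5.21 to −0.779, adjusted exact p = 0.0118), a call that was lost in 5 of the alternatives.

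The RUNX motif was found at the summits at the level of their own flanks. It was present in 125 of 1428 windows (8.75%, interval 7.40 to 10.3), in 126 flanks (8.82%) and in 7.91% of the intronic positions (adjusted exact p = 1 for summit against flank, exact sign test with 107 and 108 regions on 1 side alone). Shared summits had it in 14.8% (difference −6.07 points, interval −9.02 to −3.28, adjusted exact p = 3.53e-05) and RUNX1-only summits in 44.5% (difference −35.7 points, interval −38.7 to −32.6, adjusted exact p = 1.00e-105). Windows at shared peaks were centred on the PTBP1 summit and those at RUNX1-only peaks on the RUNX1 summit. A motif at the RUNX1 summit of a shared peak can thus lie outside the window. The classes were formed by the presence or absence of a RUNX1 peak. The RUNX motif differences between them are therefore not independent of the selection, and their p-values are no separate support. Within windows of at least 60% GC the shares were 7.49% in these regions, 12.4% at shared and 31.6% at RUNX1-only summits, and below 60% they were 10.6%, 17.3% and 47.1%. The SLC9A3 and MTA2 windows printed above are thus among a minority.

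The ETS motif (GGAAGT), bound by the ETS family that includes the blood factors SPI1 and FLI1, followed the same order. It was present in 5.81% of these summits, 11.5% of shared summits (difference −5.64 points, interval −8.27 to −3.22, adjusted exact p = 9.16e-06) and 17.7% of RUNX1-only summits (difference −11.9 points, interval −14.3 to −9.55, adjusted exact p = 2.61e-22). Its share was 5.12% in the intronic positions and 4.90% in the flanks (adjusted exact p = 0.430, exact sign test). The AP-1 motif (TGANTCA), which FOS and JUN proteins bind, was rare, at 3.08% of these summits, 3.16% of intronic positions, 5.11% of shared (adjusted exact p = 0.0291) and 6.04% of RUNX1-only summits (adjusted exact p = 0.000424). Away from chromosome ends neither AP-1 difference was called (−0.521 points, adjusted exact p = 0.837, and −1.90 points, adjusted exact p = 0.135).

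The GC box lay between the other classes. It was present at 209 summits (14.6%, interval 12.9 to 16.6), at 24.03% of shared summits (difference −9.40 points, interval −12.9 to −5.98, adjusted exact p = 1.68e-07) and at 5.21% of RUNX1-only summits (difference 9.43 points, interval 7.24 to 11.6, adjusted exact p = 1.87e-16). Intronic positions had it in 1.29%. Among windows of at least 60% GC the shares were 21.5% in these regions, 43.4% at shared summits, 22.2% at RUNX1-only summits and 12.6% at intronic positions. Without peaks within 1 kb of any transcript start the difference from shared summits was −2.32 points and was not called (adjusted exact p = 0.261). The flanks held a GC box in 11.6% (168 regions at the summit alone, 125 in the flank alone, adjusted exact p = 0.0560, exact sign test), a difference called in 9 of the alternatives. Tandem repeats were found at 18 summits (1.26%), 0.483% of intronic positions, 1.49% of shared and 1.51% of RUNX1-only summits (differences −0.234 points, interval −1.43 to 0.730, and −0.249 points, interval −1.18 to 0.648).

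**Figure D3:**
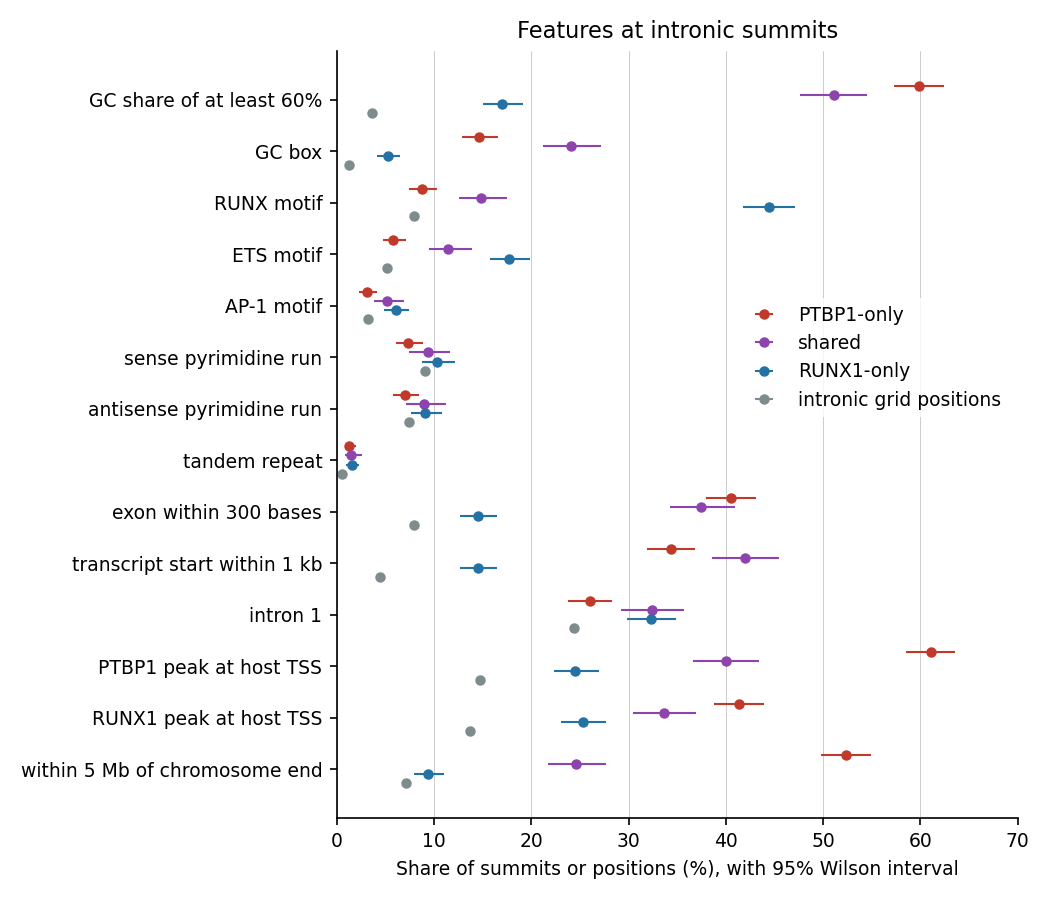
Share (horizontal axis, percent) of PTBP1-only, shared and RUNX1-only intronic summits and of intronic grid positions that carry each feature (vertical axis), as points with 95% Wilson intervals. PTBP1-only summits lie highest for GC content (59.9%) and a PTBP1 peak at the host TSS (61.1%) and near the grid positions for the RUNX motif (8.75% and 7.91%).

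Many regions lay close to an exon. The nearest exon of any transcript was at most 300 bases from the summit in 578 regions (40.5%, interval 38.0 to 43.0), in 37.5% of shared peaks (difference 2.99 points, interval −1.24 to 7.16, adjusted exact p = 0.197) and in 14.5% of RUNX1-only peaks (difference 26.0 points, interval 22.8 to 29.1, adjusted exact p = 6.54e-53). The intronic positions were that close in 7.92%. Within windows of at least 60% GC, 48.9% of these regions, 51.2% of shared peaks, 32.4% of RUNX1-only peaks and 20.2% of intronic positions were. The difference from shared peaks grew to 13.6 points (adjusted exact p = 1.09e-09) without peaks within 1 kb of a transcript start. The median distance to an exon was 491 bases, against 693 at shared, 2489 at RUNX1-only and 4150 at intronic positions.

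The introns themselves were shorter than those at the comparison peaks and positions. Evenly laid positions fall more often in long introns, so their median is not that of a typical intron. Of the 1428 summits, 1225 lay in an intron of the canonical transcript of the host gene, and the median length of that intron was 5109 bases, against 13920 at shared peaks, 24748 at RUNX1-only peaks and 39762 at intronic positions. Introns of up to 1 kb held 259 of the 1225 (21.1%), against 6.71%, 2.06% and 1.70%. Summits were nearer to the upstream exon in 612 and to the downstream exon in 613 of these introns. Among the 393 that lay within 300 bases of an exon of the canonical transcript, 216 (55.0%, interval 50.02 to 59.8) were nearer to the upstream one, and in introns longer than 600 bases 106 of 202 were (52.5%, interval 45.6 to 59.3). Intron 1 held 371 regions (26.0% of all 1428), a lower share than at shared (32.4%, difference −6.40 points, interval −10.4 to −2.48, adjusted exact p = 0.00226) and RUNX1-only peaks (32.3%, difference −6.32 points, interval −9.71 to −2.93, adjusted exact p = 0.000558). Both differences were lost away from chromosome ends (−4.38 and −4.43 points). Over summits in canonical introns alone, intron 1 held 30.3% of 1225 regions, 45.9% of 566 shared peaks (difference −15.7 points, interval −20.5 to −10.8, adjusted exact p = 5.86e-10) and 38.3% of 1118 RUNX1-only peaks (difference −7.997 points, interval −11.8 to −4.15, adjusted exact p = 9.85e-05). On this base the difference from shared peaks was also called away from chromosome ends (−12.2 points, adjusted exact p = 0.000286) and that from RUNX1-only peaks was not (−4.87 points, adjusted exact p = 0.0929). Introns beyond the tenth held 236 regions (19.3% of the 1225), 9.01% of shared and 11.8% of RUNX1-only peaks in canonical introns.

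A gene can have further transcript starts downstream of its TSS, and 490 regions (34.3%, interval 31.9 to 36.8) lay within 1 kb of one. The share was lower than at shared peaks (42.0%, difference −7.65 points, interval −11.9 to −3.46, adjusted exact p = 0.000604) and higher than at RUNX1-only peaks (14.5%, difference 19.8 points, interval 16.7 to 22.9, adjusted exact p = 1.96e-33). Intronic positions were that close in 4.48%. Thus 938 regions had no annotated transcript start of any kind within 1 kb.

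Host genes with these regions often also carried PTBP1 at their TSS. The TSS of the host gene lay within 1 kb of a PTBP1 peak for 872 regions (61.1%, interval 58.5 to 63.6), against 39.98% of shared peaks (difference 21.1 points, interval 16.8 to 25.3, adjusted exact p = 3.54e-21) and 24.5% of RUNX1-only peaks (difference 36.5 points, interval 33.0 to 39.9, adjusted exact p = 3.08e-84). A RUNX1 peak lay at the host TSS for 590 regions (41.3%), 33.6% of shared peaks (difference 7.69 points, interval 3.51 to 11.8, adjusted exact p = 0.000600) and 25.3% of RUNX1-only peaks (difference 16.0 points, interval 12.5 to 19.5, adjusted exact p = 1.72e-18). The difference from shared peaks at RUNX1-marked hosts was not called without 1 Mb windows that held 50 or more PTBP1 peaks (5.06 points, adjusted exact p = 0.0522). Of the 792 protein-coding hosts, 298 (37.6%) had both proteins at the TSS, 178 (22.5%) PTBP1 alone, 19 (2.40%) RUNX1 alone and 297 (37.5%) neither. Among the other 19241 protein-coding genes these shares were 16.5%, 8.49%, 4.04% and 71.0%. Several regions of 1 gene share its TSS, and with 1 region per host gene both TSS comparisons with each class were still called. The peaks at the TSS come from the same 2 lists that formed the classes. These comparisons are therefore not independent of the selection, and their p-values are no separate support.

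The regions were unevenly spread over the genome. Chromosome 19 held 195 of them (13.7%) and 1.91% of the intronic positions, chromosome 17 held 164 (11.5% and 2.90%), and chromosome 1 held 227 (15.9% and 8.17%). The large chromosomes 2, 3 and 4 held 14, 7 and 15. Within 5 Mb of a chromosome end lay 748 regions (52.4%, interval 49.8 to 55.0), against 24.5% of shared peaks, 9.36% of RUNX1-only peaks and 7.12% of intronic positions. This split was looked at after the distribution had been seen and carries no test. Members were found at 33 of 48 chromosome ends, but 5 ends held 388 of them. These were the start of chromosome 19 (97 regions in 56 host genes), the start of chromosome 5 (95 in 23), the end of chromosome 9 (69 in 31), the end of chromosome 17 (67 in 36) and the end of chromosome 16 (60 in 31). The same 5 ends held 27, 11, 12, 9 and 15 shared and 3, 1, 3, 7 and 0 RUNX1-only peaks.

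**Figure D4:**
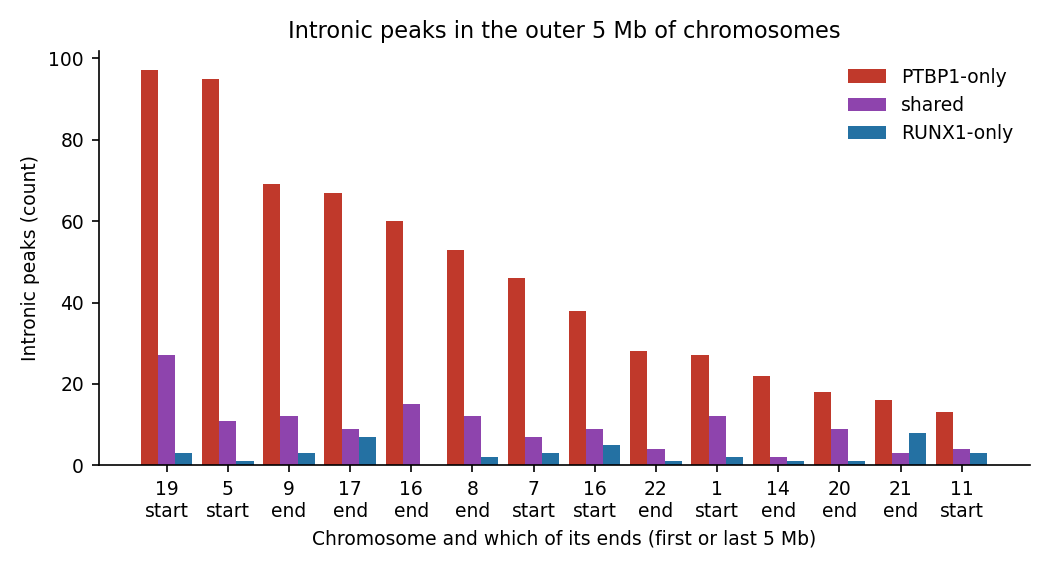
Number of intronic peaks (vertical axis) of each class in the first or last 5 Mb of the 14 chromosome ends with most PTBP1-only regions (horizontal axis). PTBP1-only regions reach 97 at the start of chromosome 19 and 95 at the start of chromosome 5, where shared peaks number 27 and 11.

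A further 152 regions in 44 host genes lay between 39 and 44 Mb of chromosome 1, together with 28 shared and 3 RUNX1-only peaks. The other 528 regions (37.0%) were spread over 449 host genes. The median fold was 9.30 at chromosome ends, away from them and in the chromosome 1 stretch alike. At chromosome ends 74.2% of the summits had a GC content of at least 60%, against 44.1% elsewhere, and 38.2% and 42.9% had an exon within 300 bases. A PTBP1 peak lay at the host TSS for 69.8% of regions at the ends and 51.5% elsewhere. The RUNX motif was present in 9.22% and 8.24%.

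The regions fell in 887 host genes, of which 641 held 1 region, 135 held 2 and 36 held 5 or more. The host is the gene that holds the summit, or overlaps the peak for the 31 summits in no gene. Among several, protein-coding genes were taken first, then named genes that are no readthrough, then the longest, and 122 summits (8.54%) also lay in another protein-coding gene. Protein-coding hosts held 1280 regions and long noncoding RNA genes 135. The 10 genes with most regions held 110 in all. The last place was a tie at 8 regions, in which SLC9A3 had the strongest region and 5 other genes were left out. Of the 10 genes, 7 had a region within 5 Mb of a chromosome end and the other 3 lie on chromosome 1.

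ST3GAL3, a sialyltransferase on chromosome 1, held 15 regions over 225342 bases with folds of 8.14 to 19.2 (median 10.5). All 15 also lie in the protein-coding gene ENSG00000284989, so the assignment is uncertain. Neither protein had a peak within 1 kb of the TSS of ST3GAL3 at 43705824. A RUNX1 peak of fold 30.9 lay further downstream, from 43707133 to 43708157. AHRR, the repressor of the aryl hydrocarbon receptor, also held 15, with folds of 3.81 to 18.6, and 7 of them stood on a raised background, with folds of at most 7.79. All 15 also lie in the readthrough gene PDCD6-AHRR. The zinc finger factor HIVEP3 held 12 (3.42 to 15.7), 8 of them in its 217417-base intron 1. EXD3, with an exonuclease domain, held 11 (6.98 to 11.6), of which 5 lay in its 14024-base intron 19.

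COX19 held 10 regions (8.14 to 30.2), but 8 of the summits also lie in ADAP1 and 9 are outside the introns of the canonical COX19 transcript, so the assignment to COX19 is uncertain. The amino acid transporter SLC38A10 held 10 within 50737 bases, with folds of 6.98 to 20.9, the densest of the 10 genes at 19.7 regions per 100 kb. The potassium-chloride cotransporter SLC12A7 held 10 within 61680 bases (3.89 to 13.95), and the receptor tyrosine phosphatase PTPRF 10 (7.56 to 13.4). Neither had a PTBP1 or RUNX1 peak at its TSS. C7orf50 held 9 (6.98 to 11.05) and SLC9A3 8 (7.56 to 30.2), with a PTBP1 peak at the TSS of both and a RUNX1 peak at that of C7orf50.

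**Figure D5:**
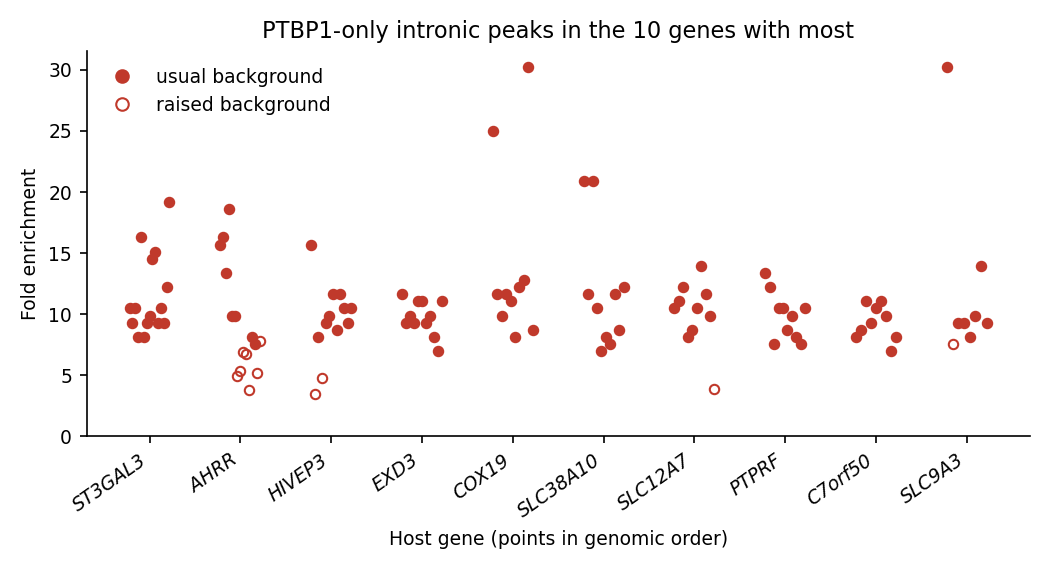
Fold enrichment (vertical axis) of each PTBP1-only intronic region in the 10 host genes with most of them (horizontal axis, points in genomic order), with hollow points for regions on a raised background. Most points lie near 10, single regions of COX19 and SLC9A3 reach 30.2, and the 7 hollow points of AHRR lie at or below 7.79.

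The raised background means a local level above 1.5 times the usual level of the same list, 0.7202 fragments for PTBP1 and 0.330 for RUNX1. It was found at 73 regions (5.11%), 3.49% of shared and 6.19% of RUNX1-only peaks (differences 1.63 points, interval −0.198 to 3.28, and −1.08 points, interval −2.84 to 0.652). At those 73, folds ran from 2.79 to 13.4 on 19 to 86 fragments.

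Gene lists were read as counts beside the 792 of 20033 protein-coding genes (3.95%) that hosted a region. Of 17 genes whose splicing PTBP1 is known to regulate, 2 did. PTBP1, which regulates splicing of its own transcript, held 3 regions, in intron 2 (fold 20.3), intron 13 (11.05) and intron 14 (9.30), with a PTBP1 and a RUNX1 peak at its TSS. The intron named is that of the summit, since the peak at the 73-base intron 14 was 1104 bases wide. All 3 lie within 5 Mb of the start of chromosome 19, the chromosome end with most regions. The cytoskeletal crosslinker ACTN1 held 1 (8.14) in intron 8. Of 34 hnRNP and SR splicing factor genes, 1 (2.94%) hosted a region, where 3.95% of 34 would be 1.34 genes. It was HNRNPC, an hnRNP core protein (8.14, in intron 2). A PTBP1 peak lay at the TSS of 24 of the 34 (70.6%), against 26.4% of all protein-coding genes. RUNX1 likewise had a peak at the TSS of 22 of the 34, against 4266 of all 20033 protein-coding genes. None of 13 cohesin and CTCF genes hosted a region, where 3.95% of 13 would be 0.514 genes. At the TSS, 6 of these 13 (46.2%) had a PTBP1 peak and 6 had a RUNX1 peak.

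Of 31 hematopoietic transcription factor genes, 2 hosted a shared and 6 a RUNX1-only intronic peak. The regions described here numbered 5 in 4 of the 31 genes (12.9%), with folds of 8.14 to 9.88. SPI1, which encodes the myeloid master factor PU.1, held 2, in intron 1 (8.14) and intron 3 (8.72). The ETS factor FLI1 (9.88) and MYB (8.72), a progenitor factor, each held 1 in intron 1, and IRF8, a monocyte factor, 1 in intron 6 (9.30). Of these, MYB had both proteins and IRF8 PTBP1 alone at the TSS. The FLI1 region lay 487 bases from a transcript start other than a gene TSS, and the others lay more than 1 kb from any. Of 27 chromatin regulators mutated in leukemia, 4 hosted a shared and 4 a RUNX1-only intronic peak, and 4 (14.8%) hosted 7 of the PTBP1-only regions. Among them were the H3K79 methyltransferase DOT1L (8.72 and 12.8), the corepressor CBFA2T3 (7.56 and 11.6) and the H3K36 methyltransferase NSD1 (8.14). The 2 regions of DOT1L lay in the neighbouring introns 20 and 21, of 189 and 681 bases, also within 5 Mb of the start of chromosome 19.

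Of 29 genes of glycolysis and glucose uptake, 5 hosted 9 regions (17.2% of the genes). This was not particular to these regions. Shared intronic peaks were hosted by 4 of the 29, against 595 of all 20033 protein-coding genes. RUNX1-only intronic peaks were hosted by 4 of the 29, against 901 of the 20033. SLC2A1, the glucose transporter GLUT1, held 4, all in its 15312-base intron 1, with folds of 9.88, 11.05, 9.88 and 8.72. LDHA, which makes lactate from pyruvate, held 1 in intron 1 (13.4), the phosphofructokinase gene PFKL 2 (each 10.5, 1 with its summit past the 3′ end of the gene) and the hexokinase gene HK1 1 (8.72). SLC16A3, the lactate exporter MCT4, held 1 in intron 4 on a raised background (4.90). PTBP1 peaks lay at the TSS of SLC2A1, PFKL and SLC16A3, but not at those of LDHA and HK1. The LDHA and HK1 regions themselves lay 7 and 73 bases from a transcript start other than a gene TSS. SLC2A1 lies in the chromosome 1 stretch described above.

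Of 25 growth factor receptor and signalling genes, IL3RA, the interleukin-3 receptor alpha chain in the pseudoautosomal part of X, held 4 regions (9.88, 9.30, 9.30 and 9.30) in introns 6, 9 and 11. Of 24 myeloid surface marker genes only the integrin gene ITGB2 held one (7.56). Of 27 cell cycle and apoptosis genes, 2 hosted 3 regions. They were the proapoptotic BAK1 (16.3 in intron 2 and 9.30 in intron 1) and the survival factor MCL1 (8.72). The lists are small and intron length differs between genes, so these counts are descriptions.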

How the data were processed

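Peaks of MOLM-13 cells were analysed from 2 deposited narrowPeak lists on hg38, for PTBP1 and RUNX1. No assay is named in them, and they were assumed to be CUT&Tag lists, since the study's methods give peak calling for CUT&Tag. After adapter trimming and Bowtie2 alignment of read pairs, the authors filtered on mapping quality and deduplicated, and MACS3 then gave peaks at a q-value threshold of 1e-07. Their notes name bedtools 2.30.0. Whether replicates were pooled and how IgG was used is not given in the sources used here. Each deposited row gives a score, a fold enrichment ratio, the −log10 p-value and −log10 q-value, and the summit offset. These values were used to describe and filter peaks. The fragment number and background were solved from fold enrichment and −log10 p together. Totals per library were not used here, and these fragment numbers are the measure of depth.

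Genes, exons, canonical transcripts and transcript starts came from GENCODE version 44, on chromosomes 1 to 22, X and Y. Shared and RUNX1-only intronic peaks were built by the same gene, TSS and exon rules. Sequence features were sought within 50 bases of the summit and of a point 500 bases upstream, motifs on both strands, where no motif contains another. Intronic positions every 25 kb served as a description of the background. Flanks and strands were compared by two-sided exact sign tests and classes by two-sided Fisher's exact tests, with Newcombe intervals for differences, Wilson intervals for shares and Benjamini-Hochberg adjustment within each family at 0.05. Because adjoining peaks can share a source, p-values refer to the 2 lists alone and say nothing of differences between cultures. Named regions were the 10 strongest, the 10 genes with most regions, up to 4 hosts per gene list, and the regions at the edges of the rule. SLC16A3, the fifth host in its list, was added after its value was seen. Some regions that this choice would name are not reported here. The regions, gene lists and tests were chosen with earlier results of these data known. Tested on simulated data, the scan found 300 of 300 planted motifs and the solver recovered 200 of 200 fragment numbers. With no difference simulated, 11 of 200 sign tests and 14 of 200 Fisher's tests passed an unadjusted 0.05. Software was Python 3.11.15 (numpy 2.4.6, pandas 2.3.3) with tests from scipy 1.17.1 and plots from matplotlib 3.10.9.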

Additional observations from a re-analysis of the deposited data

Results flagged for a closer look

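The difference between PTBP1-only and shared intronic summits in the share with at least 60% GC differed between chromosome ends and the rest of the genome. Within 5 Mb of an end the share was 74.2% of 748 PTBP1-only and 60.9% of 197 shared summits, a difference of 13.3 points, and elsewhere it was 44.1% of 680 and 47.9% of 606, a difference of −3.74 points. A Breslow-Day test of equal odds ratios gave an adjusted p of 0.00179 over the 12 features that had enough counts, and no other feature passed it. The split was chosen after the distribution of the peaks had been seen. The cause was not tested.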

How the results depend on the processing

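No paired analysis was possible because the 2 peak lists carry no replicate numbers, and no library could be left out for the same reason. Of 417 values under 15 alternatives, 2 of them chosen after seeing the data, 346 kept their direction and their side of the threshold (for the number of regions, stayed within 1.5 times), 26 differences passed the threshold anew and 17 no longer passed it. A further 24 changed sign or fell to 0, of which 1 was called in the main comparison and 23 were called in neither setting. The number of regions fell to 938 without peaks near any transcript start, 847 without 1 Mb windows of 50 or more PTBP1 peaks, 680 without chromosome ends and 887 with 1 peak per host gene, each through the exclusion itself. For the rest the cause was not tested. Values are percentage points, PTBP1-only minus the other class unless named.

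Without chromosome ends, the difference from shared summits in GC content reversed to −3.74. It was no longer called for AP-1 against shared (−0.521) and RUNX1-only (−1.90), intron 1 against shared (−4.38) and RUNX1-only (−4.43) and the sense pyrimidine run against RUNX1-only (−3.16), while the sense run at the summit minus the flank was (−4.26). Without dense windows, calls were lost for AP-1 against shared (−0.902) and RUNX1-only (−2.10), the sense run against RUNX1-only (−2.71) and a RUNX1 peak at the host TSS against shared (5.06), and gained for raised background against RUNX1-only (−4.54) and a near exon against shared (5.70). Without peaks near any transcript start, calls were lost for AP-1 (−2.60), GC box (−2.32) and RUNX1 at the host TSS (5.20) against shared and for intron 1 against RUNX1-only (−3.43), and gained for a near exon against shared (13.6). With 1 peak per host gene, they were lost for AP-1 against shared (−0.731) and the sense run against RUNX1-only (−2.77), and gained for a near exon against shared (6.06) and raised background against RUNX1-only (−2.56). The sense run against RUNX1-only was also lost at a −log10 q of at least 10 (−2.40) and with runs of 15 bases (−1.23).

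The antisense run was called against shared and RUNX1-only with a 2 kb TSS window (−2.81 and −2.73), with exons of canonical transcripts only (−3.11 and −2.25) and with 100 bases either side (−5.69 and −5.11). The last setting also called sense minus antisense (3.57) and, at the summit minus the flank, the antisense run (−3.57), ETS (2.73), AP-1 (2.31) and the GC box (5.60). AP-1 against the flank was called with canonical exons (1.25). The GC box against the flank, not called in the main comparison, was called at a −log10 q of at least 10 (3.53), with RUNX1 peaks within 500 bases counted as shared (3.16), with canonical exons (3.69), without raised background (3.17), without dense windows (6.49), without chromosome ends (7.21), with 1 peak per host gene (5.98) and with downstream flanks (4.06). 

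The differences that changed sign without a call were small. Summit minus flank, they were the RUNX motif with RUNX1 peaks within 500 bases counted as shared (0.0718), with a 2 kb TSS window (0.487), without chromosome ends (0), with 1 peak per host gene (0.564), with 100 bases either side (0.560), with downstream flanks (0.280) and without summits outside genes (0.215). They were also the antisense run without dense windows (0), without chromosome ends (0.327), with 1 peak per host gene (0.620) and with runs of 15 bases (0.152), the tandem repeat without dense windows (0.118) and without chromosome ends (0.588), and ETS without dense windows (−0.236). Sense minus antisense turned without peaks near any transcript start (−0.116), dense windows (−0.902) or chromosome ends (−0.818). Raised background turned against RUNX1-only without peaks near any transcript start (0.160) and against shared without dense windows (−0.971). The tandem repeat turned against RUNX1-only without dense windows (0.125) and against shared with a 2 kb TSS window (0.0474), without dense windows (0.389) and without chromosome ends (0.0573). The median summit rests on 16 fragments, so that single regions are measured with little precision.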
